A study of Mus musculus with 6 samples.

Results

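The genes described here are the drug-metabolising cytochrome P450 genes of families 1 to 3 in the livers of female mice. They were taken by symbol, as every gene written Cyp, a family digit from 1 to 3, a subfamily letter and a closing number. The rule found 34 genes among the 17624 genes in the table. Another 25 genes with a Cyp symbol fell outside it, among them Cyp3a41a and Cyp3a41b, whose symbols end in a letter.

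RNA-seq was run on the livers of 6 female C57BL/6 mice of the F1 generation. The 3 iAsF1-F mice had fathers that drank water with inorganic arsenic (iAs) before mating with unexposed females, and the 3 conF1-F mice came from control matings. No mouse of either group drank iAs itself. The sample labels give a collection at feeding status, whereas the heat map legend of the study gives refeeding, and no age is given in the labels.

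Cytochrome P450 enzymes are heme proteins that insert an oxygen atom into their substrate, with electrons passed on by the reductase Por or by cytochrome b5. Enzymes of families 1 to 3 sit in the endoplasmic reticulum of hepatocytes and oxidise drugs, toxins, steroids, fatty acids and bile acids. Several of these genes are induced through the receptors AHR, CAR and PXR, some are concentrated in hepatocytes near the central or the portal vein, and many in mouse liver differ between the sexes under the control of growth hormone. Mice carry expanded tandem clusters of these genes, whose copies can be nearly identical in sequence.

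The 34 genes formed 11 subfamilies. The Cyp2c subfamily had 11 genes, Cyp3a had 6, Cyp2a had 4, Cyp2b and Cyp2d had 3 each, and Cyp2j had 2. Cyp1a, Cyp2e, Cyp2f, Cyp2g and Cyp2r were represented by 1 gene each. By position, 11 genes lay on chromosome 7 and 11 on chromosome 19, where the Cyp2c genes are found.

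Near-identical sequence can limit how far the values of single genes can be separated. At 95% or more coding identity, a group of 4 members held Cyp2c40, Cyp2c67, Cyp2c68 and Cyp2c69. These 4 genes lie on the minus strand of chromosome 19 (GRCm38), from chr19:39608842-39649051 for Cyp2c67 and chr19:39688834-39741054 for Cyp2c68 to chr19:39767071-39812814 for Cyp2c40 and chr19:39842814-39886799 for Cyp2c69. Their pairwise identity ran from 96.5% (Cyp2c68 and Cyp2c69) to 98.1% (Cyp2c40 and Cyp2c68). A stretch of 60 coding bases is shown because it separates all 4 genes, with capitals at the 8 positions where at least 1 of the 4 differs (GENCODE vM21 transcripts, coding bases 351 to 410 of Cyp2c40 and 264 to 323 of the others).
Cyp2c40: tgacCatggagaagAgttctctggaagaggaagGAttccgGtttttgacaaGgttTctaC
Cyp2c67: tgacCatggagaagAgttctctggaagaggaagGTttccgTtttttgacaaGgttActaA
Cyp2c68: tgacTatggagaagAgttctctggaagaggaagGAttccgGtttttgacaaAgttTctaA
Cyp2c69: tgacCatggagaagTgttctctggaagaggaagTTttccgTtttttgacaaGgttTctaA

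Elsewhere the copies run together for longer. The longest run identical in all 4 genes was 113 bases. Of all stretches of 50 bases in the coding sequence of Cyp2c40, 75.3% were also found in the transcript of another gene. The share was 60.1% for Cyp2c69, 54.7% for Cyp2c67 and 45.5% for Cyp2c68. A read that lies wholly within such a stretch cannot be given to 1 gene by sequence, while a longer read may reach a base that differs. How the authors counted shared reads is not given in the sources used here, so the values of these genes are uncertain one by one.

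The other close groups were Cyp2a4 with Cyp2a5 (98.4% identity), Cyp2a12 with Cyp2a22 (97.0%), Cyp3a25 with Cyp3a59 (97.5%), Cyp2c37 with Cyp2c50 and Cyp2c54, and Cyp3a11 and Cyp3a44 with the Cyp3a41 pair. Cyp2a4 and Cyp2a5 are shown over coding bases 596 to 655, with capitals at the 4 positions that differ, because the groups were apart for the testosterone hydroxylase Cyp2a4 and overlapped for the coumarin hydroxylase Cyp2a5.
Cyp2a4: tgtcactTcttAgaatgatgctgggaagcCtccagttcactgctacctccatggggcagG
Cyp2a5: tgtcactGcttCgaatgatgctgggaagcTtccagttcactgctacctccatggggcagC

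At the other end, Cyp2e1, Cyp2f2, Cyp2c44, Cyp2c70, Cyp2r1 and Cyp3a13 shared no stretch of 50 coding bases with any other gene.

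RefSeq promoters (GRCm38.p6, 250 bases before to 50 bases after the start of the gene) were matched for 31 of the 34 genes, 32 promoters in all. The letters CAAAGTCC, a core of binding sites of the hepatocyte factor HNF4α, were found on either strand in 9 of these 32 promoters (28.1%), against 1.42% of all 32851 promoters. The 9 belonged to Cyp2a4, Cyp2a5, Cyp2c40, Cyp2c67, Cyp2c68, Cyp2c69, Cyp2c70, Cyp3a11 and Cyp3a16, of which many are copies of each other and do not count as separate cases. The motif is shown in capitals within 60 bases of promoter on the gene's strand for the 4 copies and for Cyp2c70, since Cyp2c40 and Cyp2c70 had the smallest p-values of the P450 genes, in opposite directions.
Cyp2c40: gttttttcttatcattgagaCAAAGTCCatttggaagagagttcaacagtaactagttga
Cyp2c69: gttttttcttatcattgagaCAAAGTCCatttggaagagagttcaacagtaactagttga
Cyp2c68: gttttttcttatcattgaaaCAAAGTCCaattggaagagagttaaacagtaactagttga
Cyp2c67: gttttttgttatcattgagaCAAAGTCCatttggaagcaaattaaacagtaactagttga
Cyp2c70: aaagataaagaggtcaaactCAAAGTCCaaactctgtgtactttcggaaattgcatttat

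Cyp2c40 (chr19:39812820-39812879) and Cyp2c69 (chr19:39886805-39886864) were identical over these 60 bases. Cyp2c68 (chr19:39741139-39741198) differed from both at 3 bases and Cyp2c67 (chr19:39649128-39649187) at 5. Cyp2c67 and Cyp2c68 differed from each other at 6. The Cyp2c70 stretch lies at chr19:40187311-40187370. A match to these letters is a description of the sequence and not of binding. The letters GCGTG, the core of the AHR response element, were in 3 of the 32 promoters (9.38%, Cyp2b10, Cyp2c68 and Cyp2r1) against 32.4% of all promoters. TTCNNNGAA, the STAT5 palindrome, was in 0 against 8.3%. Promoters were not matched for base composition, and sequence outside the window was not searched, so these shares do not tell how many sites the genes have.

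Levels are given as RPKM, the reads of a gene divided by its transcript length and by the size of the library. For some genes, such as Cyp2e1 (3 entries) and Cyp3a11 (2 entries), the deposited value is a mean of entries, by its decimals. Rankings and sums over genes therefore mix single values with means, and levels compare only roughly between genes. All 34 genes averaged 1 RPKM or more over the 6 livers, 27 averaged more than 10 and 16 more than 100. The 5 highest, Cyp2e1, Cyp2c29, Cyp2c37, Cyp2c69 and Cyp3a11, took 47.7% of the P450 sum. Together the 34 genes made up 1.42% to 1.64% of the RPKM of all genes in the conF1-F livers and 1.62% to 1.63% in the iAsF1-F livers.

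**Figure D1:**
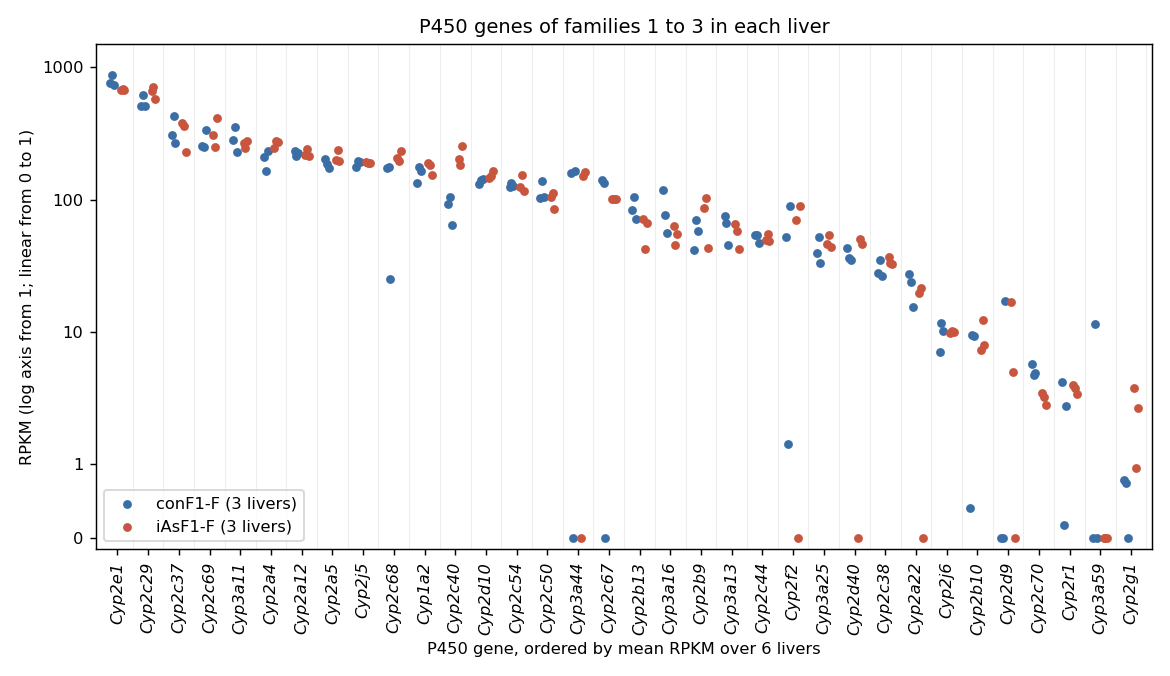
RPKM of the 34 P450 genes in each of the 3 conF1-F and 3 iAsF1-F livers, on a log axis above 1 and a linear axis below, ordered by the mean over 6 livers. Cyp2c40 and Cyp2c70 show the groups apart, and 8 genes have at least 1 point at 0.

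Read numbers are not known for these libraries and no counting interval is given. Relative depth estimated from the lowest values lay between 67.0% and 100% of the deepest library. In all 6 livers 26 of the P450 genes were above 0, and 8 were listed at 0 in 1 to 5 livers. Of the 31 P450 genes above 10 RPKM in some liver, 7 were listed at 0 in another (22.6%), compared with 329 of 2449 genes in the whole table (13.4%). A value of 0 at such levels can be a failed estimate, and fitted fold changes of genes with a 0 rest on it. For 12 of the 34 genes the deposited value is the mean of 2 or more entries, by its decimals. In bulk liver, fewer cells of a type and less RNA per cell cannot be told apart.

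By subfamily, the summed level was highest for Cyp2c in both groups. Cyp2e1 came next in conF1-F, and Cyp2a in iAsF1-F. Cyp3a followed, without the Cyp3a41 pair, which the rule leaves out. The Cyp2c sum was 1802, 2072 and 1517 RPKM in the conF1-F livers and 2182, 2155 and 2097 RPKM in the iAsF1-F livers. The groups did not overlap, and the mean was 1797 ± 277 (SD, n = 3) against 2145 ± 43.1 (SD, n = 3) RPKM, a ratio of 1.19. The log2 ratio of 0.26 fell to 0.15 without conF1-F replicate 3. Without Cyp2c40 the groups overlapped, with a ratio of 1.13.

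The Cyp2a sum was 635 ± 44.8 RPKM in conF1-F and 716 ± 55.7 RPKM in iAsF1-F (SD, n = 3 each), and the groups did not overlap. Its log2 ratio of 0.17 fell to 0.11 without iAsF1-F replicate 2. Of the Cyp2a genes, only Cyp2a4 had the groups apart, while Cyp2a5, Cyp2a12 and Cyp2a22 overlapped. The Cyp3a sum was 589 ± 78.5 RPKM in conF1-F and 525 ± 74.3 RPKM in iAsF1-F (SD, n = 3 each), with the groups overlapping. With Cyp3a11, Cyp3a16, Cyp3a44 and the Cyp3a41 pair added up, the sums were 1708, 1458 and 1385 RPKM in conF1-F and 1380, 1304 and 1616 RPKM in iAsF1-F, which also overlapped.

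The remaining sums overlapped between the groups, apart from the single genes Cyp2e1 and Cyp2g1 described further on. Cyp1a2 stood at 158 and 175 RPKM, Cyp2b at 150 and 148, Cyp2d at 181 and 193, and Cyp2j at 197 and 201, as means of conF1-F and iAsF1-F. The sum over all 34 genes was 4550 ± 316 and 4840 ± 72.2 RPKM (SD, n = 3 each), a ratio of 1.06, and overlapped. The log2 ratio of 0.09 fell to 0.04 without conF1-F replicate 3. No test was run on sums.

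**Figure D2:**
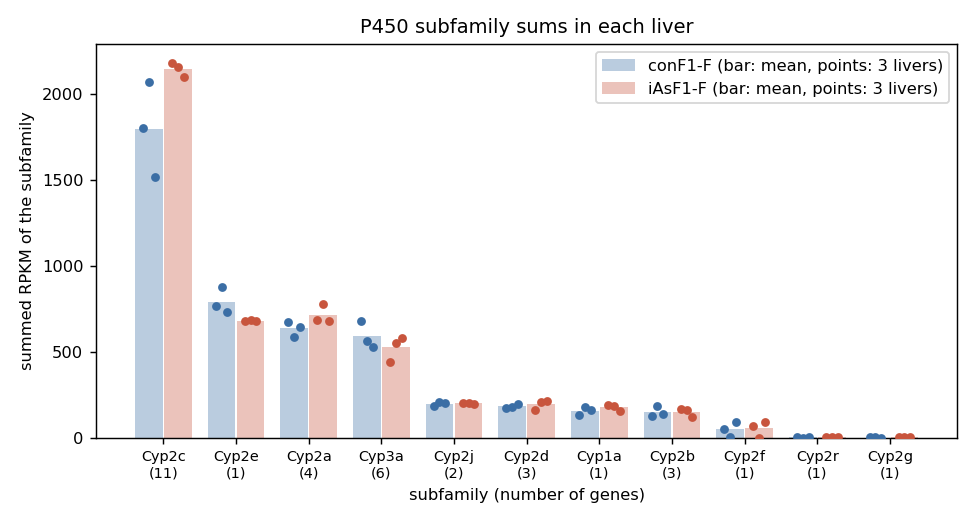
Summed RPKM of each P450 subfamily, with the number of its genes below the name. Bars are means and points are the 3 livers of each group. The Cyp2c and Cyp2a points of iAsF1-F lie above those of conF1-F, the Cyp2e1 points lie below, and the Cyp3a points overlap.

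The comparison of iAsF1-F with conF1-F asked whether paternal iAs changed hepatic mRNA in daughters. None of the 34 P450 genes passed limma at an adjusted p of 0.05 (background 0.248%, 16 of 6448 tested genes). At an unadjusted p under 0.05 there were 5 P450 genes (14.7%), against a background of 5.12% of all tested genes. Of these, 3 were higher in iAsF1-F (Cyp2c40, Cyp2a4 and Cyp2g1, background 2.75%) and 2 were lower (Cyp2c70 and Cyp2e1, background 2.37%). The 5 were read from the same fit in which none passed the adjustment. Cyp2g1 reached the 1 RPKM mean needed for testing only through iAsF1-F, so it had to differ. It is no support for either count of higher genes.

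The 2 groups did not overlap for 7 of the 34 genes (20.6%, background 11.5%). The 5 higher ones were Cyp2c40, Cyp2a4, Cyp2g1, Cyp2d10 and Cyp2c68 (background 5.83%), and the 2 lower ones were Cyp2c70 and Cyp2e1 (background 5.71%). The log2 fold change was above 0 for 20 genes and below 0 for 14. Its median was 0.05 on the log2(RPKM + 1) scale, where the median over all tested genes was -0.0015. A pseudocount of 1 RPKM understates the change of genes at a few RPKM, such as Cyp2g1, Cyp2r1 and Cyp2c70.

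**Figure D3:**
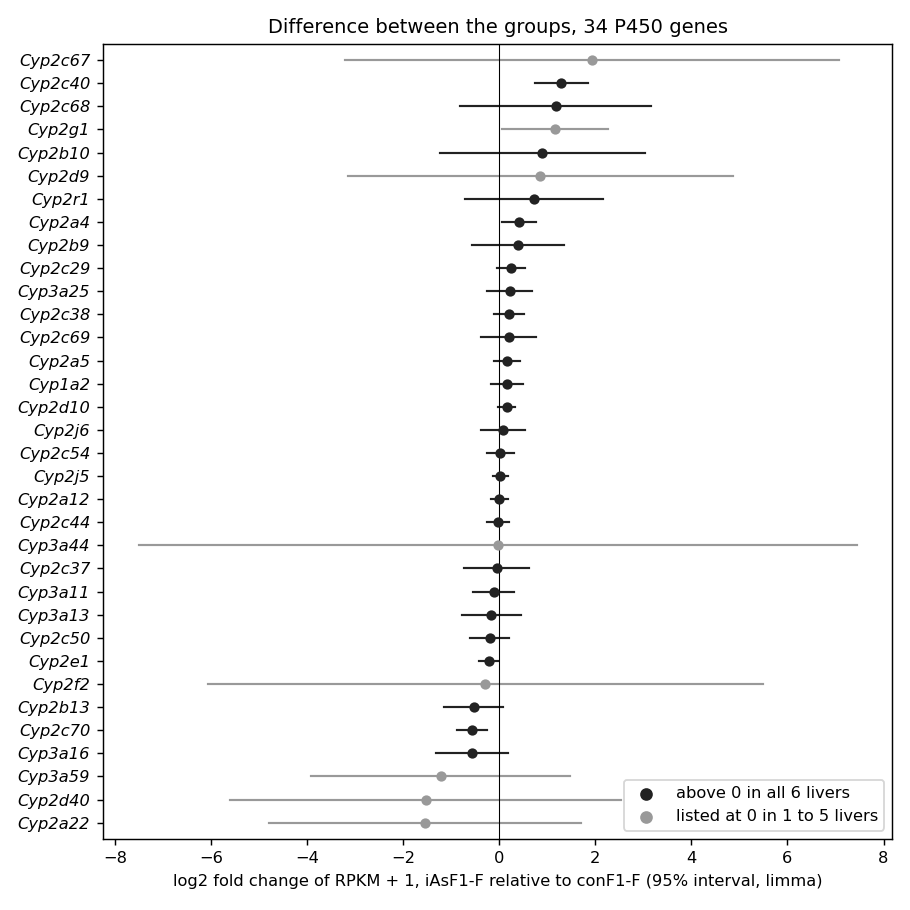
Log2 fold change of RPKM + 1 (iAsF1-F relative to conF1-F) with its 95% interval from limma, n = 3 livers per group, for the 34 P450 genes in order. Grey marks the 8 genes listed at 0 in 1 to 5 livers. The interval lies within -0.5 to 0.5 for 8 genes, and that of Cyp2c40 is the interval furthest from 0.

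Cyp2c40, a female-predominant enzyme of arachidonic acid metabolism in mouse liver, had the smallest p of the 34 genes. Its level was 93.0, 104 and 64.7 RPKM in the conF1-F livers and 202, 183 and 256 RPKM in the iAsF1-F livers. The lowest iAsF1-F value was well above the highest conF1-F value. The mean was 87.3 ± 20.4 against 214 ± 37.7 RPKM (SD, n = 3 each), a ratio of 2.45. The log2 fold change was 1.30 (SE 0.22, 95% interval 0.75 to 1.85), with an adjusted p of 0.279 by limma, and it did not pass. With any 1 liver left out it lay between 1.10 and 1.44.

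Cyp2c69, the highest of the 4 copies, was 254, 249 and 338 RPKM in conF1-F and 307, 249 and 418 RPKM in iAsF1-F, and the groups overlapped. Cyp2c68 was 175, 175 and 25.3 RPKM in conF1-F and 206, 196 and 233 RPKM in iAsF1-F, without overlap. Cyp2c67 was 142, 133 and 0 RPKM in conF1-F and 101, 101 and 102 RPKM in iAsF1-F.

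The conF1-F replicate 3 liver stood apart for Cyp2c67 and Cyp2c68, while its Cyp2c69 level was the highest of the conF1-F livers. Without that liver the log2 fold change of Cyp2c68 went from 1.18 to 0.27, and that of Cyp2c67 turned from 1.93 to -0.44. The fitted value of Cyp2c67 with that liver rests on its 0.

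Summed over the 4 copies, the level was 663, 661 and 428 RPKM in conF1-F and 816, 730 and 1008 RPKM in iAsF1-F. The groups did not overlap, with a ratio of means of 1.46, or a log2 ratio of 0.54. Without conF1-F replicate 3 this log2 ratio was 0.36. The sum was chosen after the values were seen and was not tested. Cyp2c40 made up 14.0%, 15.7% and 15.1% of the sum in the conF1-F livers and 24.7%, 25.1% and 25.4% in the iAsF1-F livers. This share varied little within a group, also in conF1-F replicate 3 with its 0 for Cyp2c67. Whether RNA of the other 3 genes moved the value of Cyp2c40 through shared reads was not tested.

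**Figure D4:**
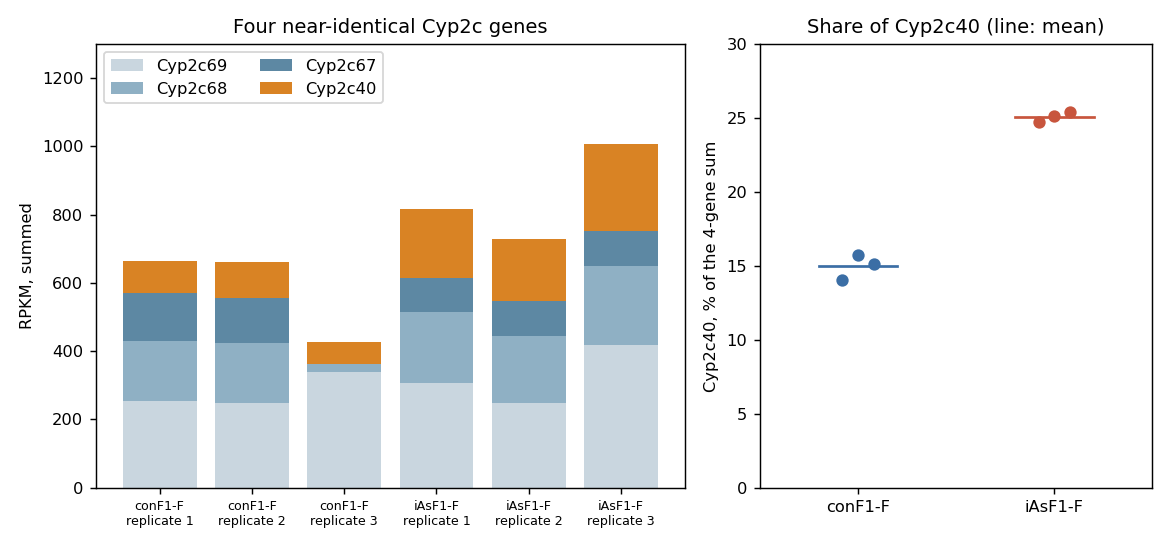
Left, RPKM of Cyp2c69, Cyp2c68, Cyp2c67 and Cyp2c40 stacked in each liver. Right, Cyp2c40 as a percentage of that sum in each liver, with the mean of 3 as a line. The share lies between 14.0% and 15.7% in conF1-F and between 24.7% and 25.4% in iAsF1-F.

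Cyp2c70, which makes muricholic acids in mice, had the next smallest p and went the other way. Its level was 5.71, 4.77 and 4.92 RPKM in conF1-F and 3.49, 3.22 and 2.79 RPKM in iAsF1-F. All iAsF1-F livers were below all conF1-F livers, with a ratio of means of 0.617. The log2 fold change was -0.56 (SE 0.12, 95% interval -0.87 to -0.25), with an adjusted p of 0.637 by limma. Its value in the deposited table is a mean of 2 entries. With any 1 liver left out, the fold change lay between -0.61 and -0.49.

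The other Cyp2c genes showed smaller differences. Cyp2c29, the highest of the subfamily, was 513, 615 and 510 RPKM in conF1-F and 665, 705 and 574 RPKM in iAsF1-F. A single conF1-F liver reached into the range of the iAsF1-F livers, and the log2 fold change was 0.25 (SE 0.11, adjusted p of 0.877 by limma). Cyp2c37 was 309, 428 and 269 RPKM against 382, 363 and 229 RPKM, with the spread within each group wider than the difference. The mean of Cyp2c54 was 128 RPKM in conF1-F and 131 RPKM in iAsF1-F, that of Cyp2c50 was 116 and 101, and that of Cyp2c38 was 29.9 and 34.3. Cyp2c44, an arachidonic acid epoxygenase listed as Cyp2c23 in GENCODE, was among the steadiest, at 51.9 ± 4.45 and 51.1 ± 3.52 RPKM (SD, n = 3 each).

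Cyp2e1, the ethanol-oxidising enzyme of pericentral hepatocytes, was the highest P450 gene and is free of near copies. It was 763, 879 and 733 RPKM in conF1-F and 677, 683 and 676 RPKM in iAsF1-F. The iAsF1-F livers lay close together and below all conF1-F livers, with a ratio of means of 0.857. The log2 fold change was -0.22 (SE 0.08, 95% interval -0.42 to -0.02), with an adjusted p of 0.877 by limma. Without conF1-F replicate 2, the highest liver, it was -0.14.

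Cyp1a2, also a pericentral P450 gene and a target of AHR, was 134, 175 and 164 RPKM in conF1-F and 189, 183 and 154 RPKM in iAsF1-F. The groups overlapped, with a log2 fold change of 0.16 (95% interval -0.18 to 0.49), or 0.04 without conF1-F replicate 1. The periportal P450 gene Cyp2f2, which activates naphthalene, was 52.2, 1.42 and 89.9 RPKM in conF1-F and 70.0, 0 and 89.8 RPKM in iAsF1-F. Each group held a liver at or near 0, and no direction can be read from these values.

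In the Cyp2a subfamily, Cyp2a4, a female-predominant steroid hydroxylase, was higher in all iAsF1-F livers, whereas its copy Cyp2a5 overlapped. The difference between the copies was not tested. Cyp2a4 was 210, 164 and 231 RPKM in conF1-F and 247, 277 and 273 RPKM in iAsF1-F. The groups did not overlap, with a ratio of means of 1.32 and a log2 fold change of 0.41 (SE 0.14, 95% interval 0.06 to 0.76, adjusted p of 0.877 by limma). Without conF1-F replicate 2 it was 0.27. Cyp2a5 was 205, 187 and 174 RPKM against 201, 239 and 195 RPKM.

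Since 40.5% of the 50-base stretches of Cyp2a4 and 51.6% of those of Cyp2a5 are shared with another gene, their sum is also given. It was 414, 351 and 405 RPKM in conF1-F and 448, 516 and 469 RPKM in iAsF1-F, without overlap. Cyp2a12 was nearly level, at 223 ± 10.3 RPKM in conF1-F and 224 ± 15.8 RPKM in iAsF1-F (SD, n = 3 each), with a 95% interval of the log2 fold change of -0.18 to 0.19. Its copy Cyp2a22 was 27.5, 23.8 and 15.5 RPKM against 19.7, 21.4 and 0 RPKM.

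The Cyp2b genes include Cyp2b10, the classical target of CAR, and the female-predominant Cyp2b9 and Cyp2b13. Cyp2b10 was 0.409, 9.56 and 9.31 RPKM in conF1-F and 7.31, 12.3 and 8.04 RPKM in iAsF1-F. Only conF1-F replicate 1 was low, and the log2 fold change of 0.90 had an SE of 0.85. Cyp2b13 was 83.6, 105 and 71.8 RPKM in conF1-F and 71.9, 42.5 and 67.0 RPKM in iAsF1-F. Cyp2b9 was 41.9, 69.6 and 58.4 RPKM against 86.9, 104 and 43.2 RPKM. Both overlapped, and their log2 fold changes of -0.53 and 0.39 had opposite signs, with -0.30 for Cyp2b13 without iAsF1-F replicate 2, while their sum was 144 ± 27.3 and 138 ± 25.2 RPKM (SD, n = 3 each).

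In the Cyp3a subfamily, Cyp3a11, the main PXR target of mouse liver, was 284, 356 and 228 RPKM in conF1-F and 267, 244 and 278 RPKM in iAsF1-F. The iAsF1-F range lay inside the conF1-F range, with a log2 fold change of -0.11 (95% interval -0.54 to 0.32). The female-predominant Cyp3a16 was 119, 76.1 and 55.9 RPKM in conF1-F and 62.7, 45.1 and 54.8 RPKM in iAsF1-F, which overlapped.

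Cyp3a44, also female-predominant, was 159, 0 and 164 RPKM in conF1-F and 0, 150 and 162 RPKM in iAsF1-F. The 4 livers with a value lay close together, and each group had 1 liver listed at 0. Cyp3a13 was 62.4 ± 15.3 and 55.2 ± 11.3 RPKM, and Cyp3a25 was 41.7 ± 9.81 and 48.0 ± 5.28 RPKM (SD, n = 3 each). Cyp3a59 was above 0 in conF1-F replicate 2 alone, at 11.6 RPKM.

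Of the Cyp2d genes, Cyp2d10 was 131, 140 and 142 RPKM in conF1-F and 146, 150 and 165 RPKM in iAsF1-F. The groups did not overlap, but the difference was small, with a log2 fold change of 0.16 (SE 0.07, 95% interval -0.02 to 0.33). The male-predominant testosterone hydroxylase Cyp2d9 was 0, 0 and 17.1 RPKM against 16.9, 4.96 and 0 RPKM. Cyp2d40 was 42.8, 36.1 and 35.1 RPKM in conF1-F and 0, 50.1 and 46.3 RPKM in iAsF1-F, so that apart from the 0 its iAsF1-F values were the higher ones.

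Cyp2j5, an epoxygenase of arachidonic acid, was 188 ± 10.7 and 191 ± 2.80 RPKM (SD, n = 3 each), and its coefficient of variation over 6 livers was 3.80%, compared with a median of 16.9% over the 26 P450 genes never listed at 0. Cyp2j6 was 9.64 ± 2.39 and 10.01 ± 0.164 RPKM (SD, n = 3 each).

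Cyp2r1, a 25-hydroxylase of vitamin D, was 4.22, 0.178 and 2.77 RPKM in conF1-F and 3.98, 3.78 and 3.39 RPKM in iAsF1-F. The groups overlapped, with 1 low liver in conF1-F. Cyp2g1, known as a P450 of the olfactory mucosa, was the lowest member, at 0.793, 0.746 and 0 RPKM in conF1-F and 3.81, 0.949 and 2.67 RPKM in iAsF1-F. The groups did not overlap, but the gene passed the filter only through iAsF1-F, and its fitted log2 fold change went from 1.15 to 2.41 with a pseudocount of 0.1 RPKM.

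With 3 livers against 3, an exact permutation test cannot give a two-sided p below 0.1, which is the value each of the 7 genes without overlap reached. The p-values measure the spread between these livers, which the study describes as biological triplicates without naming litters in the labels. Their intervals were wide for many genes: only 8 of 34 had a 95% interval inside a log2 fold change of -0.5 to 0.5.

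P450 activity depends on electron donors and heme. Of 16 tested genes of this list, 0 passed at an adjusted p of 0.05, and 2 had an unadjusted p under 0.05, both higher in iAsF1-F (background 2.75%). The median log2 fold change of the list stood at 0.07. Cyb5r3, the NADH-cytochrome b5 reductase, was 108, 106 and 96.8 RPKM in conF1-F and 158, 145 and 150 RPKM in iAsF1-F. The groups were well apart, with a log2 fold change of 0.54 (SE 0.07), and the adjusted p was 0.118 by limma. The heme-binding Pgrmc2 was 9.75, 10.7 and 10.5 RPKM against 13.7, 11.9 and 11.7 RPKM, with a log2 fold change of 0.25 (SE 0.09). Cyb5b, a cytochrome b5 of mitochondria, was 65.5, 66.0 and 73.8 RPKM against 75.4, 84.5 and 76.1 RPKM, also without overlap. Por overlapped, at 38.1, 24.9 and 15.3 RPKM in conF1-F and 23.9, 22.1 and 28.8 RPKM in iAsF1-F.

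Among 14 tested receptors and hepatic regulators of P450 genes (median log2 fold change 0.10), 0 passed limma's adjusted p, and 1 had an unadjusted p under 0.05 (background 5.12%). This was Cebpa, a hepatocyte transcription factor, at 127, 120 and 125 RPKM in conF1-F and 137, 137 and 133 RPKM in iAsF1-F, a log2 fold change of 0.13 (SE 0.05). Ahr, the receptor behind Cyp1a2 induction, was 5.23, 4.69 and 5.70 RPKM in conF1-F and 4.27, 1.92 and 0.373 RPKM in iAsF1-F. All iAsF1-F livers were lower, with a log2 fold change of -1.16 (SE 0.50) and an adjusted p of 0.877 by limma. The groups did not overlap for 4 of the 14 genes (background 11.5%), of which 3 were higher in iAsF1-F and Ahr was lower.

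Hnf4a, whose site core is shown above, was 19.0, 24.2 and 21.8 RPKM in conF1-F and 22.5, 22.6 and 27.2 RPKM in iAsF1-F, which overlapped. The gene of CAR, Nr1i3, was 6.997, 4.84 and 5.40 RPKM against 4.72, 8.48 and 7.93 RPKM. The gene of PXR, Nr1i2, was listed at 0 in 1 conF1-F and 2 iAsF1-F livers. Of 9 tested non-P450 genes induced through these receptors, 0 had an unadjusted p under 0.05. Their log2 fold changes were above 0 for 7 and below for 2, with a median of 0.17 (all tested genes: 3205 above and 3243 below). The genes of smallest p in that list were Ces2a, Ugt1a6a and Slco1a4.

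Of the 9 female-predominant P450 genes, Cyp3a41a and Cyp3a41b included, 0 passed at an adjusted p of 0.05, 5 were above 0 and 4 below, with a median log2 fold change of 0.18. Cyp2c40 and Cyp2a4 were the 2 with an unadjusted p under 0.05 (background 5.12%). The list's summed level was 2105, 1794 and 1922 RPKM in conF1-F and 2028, 1915 and 2394 RPKM in iAsF1-F, and the groups overlapped. Of the 3 tested male-predominant genes, Mup20, Cyp7b1 and Cyp2d9, all overlapped. Of the 6 tested genes of growth hormone signalling and sex bias (median log2 fold change 0.19), 0 had an unadjusted p under 0.05, and the smallest p belonged to Igf1, Ghr and Prlr.

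By liver zone, 9 pericentral and 9 periportal genes were tested and 0 passed limma's adjusted p, with median log2 fold changes of -0.07 and 0.16. Among the pericentral genes 4 were above 0 and 5 below, with 1 at an unadjusted p under 0.05 (background 5.12%), Cyp2e1 itself. Oat, the ornithine aminotransferase of pericentral cells, was 319, 359 and 326 RPKM in conF1-F and 301, 191 and 276 RPKM in iAsF1-F, without overlap, while Rgn overlapped with higher mean values in iAsF1-F. Among the periportal genes 8 were above 0 and 1 below (all tested genes: 3205 above and 3243 below), and 0 had an unadjusted p under 0.05. Pck1, Arg1 and Sds had the smallest p of that list.

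Of the other genes with a Cyp symbol, 19 were tested and 0 passed limma's adjusted p, with 9 above 0, 10 below and a median log2 fold change of -0.02. The 2 with an unadjusted p under 0.05, Cyp3a63-ps and Cyp4a32, had fold changes below 0 (background 2.37%). Cyp3a63-ps, a Cyp3a pseudogene, was 1.64, 4.37 and 5.99 RPKM in the controls, whereas all iAsF1-F livers were listed at 0, and it passed the filter only through conF1-F, so its p is no support. Cyp4a32 was 59.0, 39.5 and 122 RPKM against 0, 42.8 and 0 RPKM. Cyp4a14, a target of PPARα, was 274, 340 and 429 RPKM against 181, 215 and 305 RPKM, and both Cyp4a genes overlapped.

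Markers of hepatocytes were high in every liver, as the label of the tissue states. Of 9 hepatocyte markers 8 were above 0 in log2 fold change (median 0.15) and 1 (Ttr) had an unadjusted p under 0.05 (background 5.12%). Over all tested genes, 3205 were above 0 and 3243 below. The hepatocyte markers' sum was 36845 to 43306 RPKM in conF1-F and 39118 to 44362 RPKM in iAsF1-F. Of 4 tested erythroid genes 3 were lower at an unadjusted p under 0.05 (background 2.37%). These were the globin genes Hbb-bs, Hbb-bt and Hba-a1, which varied alike over the livers and do not count as separate cases. The globin gene Hba-a2 had a log2 fold change of 0.82, with 4.93 RPKM in conF1-F replicate 3 against 162 and 94.1 RPKM in the other conF1-F livers. The list's sum was 372 to 647 RPKM in conF1-F and 237 to 367 RPKM in iAsF1-F, with a median log2 fold change of -0.74. Of 8 Kupffer cell markers 7 were below 0 (median -0.27), with a sum of 124 to 290 RPKM in conF1-F and 69.8 to 226 RPKM in iAsF1-F. The lowest sum was that of iAsF1-F replicate 1, where C1qc, Vsig4, Marco, Cd68 and C1qa were listed at 0. Each of these but Vsig4 was also listed at 0 in a conF1-F liver, and such values can be failed estimates. Sinusoidal endothelial markers summed to 15.5 to 19.7 and 3.90 to 20.7 RPKM, and stellate cell markers to 29.9 to 52.1 and 38.9 to 44.8 RPKM. The 3.90 RPKM was also that of iAsF1-F replicate 1, where the endothelial marker Clec4g was listed at 0. The part of blood and of other cell types in the P450 differences was not tested. None of the pancreatic acinar, kidney proximal tubule or smooth muscle markers was listed in the table used here.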

How the data were processed

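The authors deposited RPKM values for each liver, in a table of the whole series and in tables of single libraries that were equal in all 105744 cells compared. Per the submitters' processing notes, mm10 was the genome, and the tools were STAR 2.5.3a, DESeq2 1.8.2 and HTSeq. The program behind the RPKM values and the handling of reads shared between genes are not given in the sources used here. In 1 library 13 cells shown as dates or times, none of a P450 gene, were converted back. With limma 3.58.1 (R 4.3.3), log2(RPKM + 1) was fitted for the 6448 genes averaging 1 RPKM or more (group as the only term, variance trend), with Benjamini-Hochberg adjustment over all of them. An exact permutation test (two-sided) was added for each gene. Coding sequences of GENCODE vM21 were aligned by MAFFT 7.526, and promoters came from RefSeq (GRCm38.p6). Values were read with Python 3.11.15 and pandas 2.3.3.

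The members and lists were chosen with earlier results of these data known. The genes named are the highest of each subfamily, those with an unadjusted p under 0.05, those without overlap between groups, those listed at 0 in 1 to 5 livers with at least 10 RPKM elsewhere, and the 3 of smallest p in each list, of which 1 is not reported here. Others are described by subfamily and were named after their values were seen. Alternatives were another pseudocount (0.1), no filter or a filter at 5 RPKM, a robust fit, rescalings, the replicate number as a block, and each liver left out.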

Additional observations from a re-analysis of the deposited data

How the results depend on the processing

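The number of P450 genes passing an adjusted p of 0.05 was 0 under every setting run, and 5 at an unadjusted p under 0.05. That count of 5, repeated under settings added after the data were seen, was 3 of 30 with a filter at a mean of 5 RPKM (10%, background 6.05%). Cyp2c70 and Cyp2g1, with means of 4.15 and 1.49 RPKM, were not tested under that filter. With 1 liver left out the count was 2 to 7. It was 2 without conF1-F replicate 1 (5.88% of the P450 genes tested, background 4.65%). It was 3 without iAsF1-F replicate 2 (8.82%, background 4.47%) and 7 without conF1-F replicate 3 (20.6%, background 5.03%). Cyp2c40 was in each of these sets, and Cyp2c70 in each with 1 liver left out. Cyp2e1 dropped out under both rescalings and in every fit with 1 liver left out except that without conF1-F replicate 3. Cyp2a4 dropped out without conF1-F replicate 1, iAsF1-F replicate 2 or iAsF1-F replicate 3, and with the replicate number as a block. Over all genes limma called 16, but 1 with a filter at 5 RPKM, 5 when only genes above 0 in all livers were kept, and 26 to 38 with 1 liver left out. The replicate number as a block gave 0 P450 genes and 0 genes in all. The labels name no pairing beyond the replicate number. The deviations of same-numbered livers correlated at -0.068, 0.017 and 0.010, which cannot show whether they shared a litter or a preparation.

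The direction of 7 named genes turned when 1 liver was left out. The log2 fold change then ranged from -2.50 to 0.34 for Cyp2d40, -0.44 to 3.14 for Cyp2c67, -0.27 to 0.046 for Cyp3a11, -0.11 to 2.25 for Cyp2d9, -0.022 to 0.052 for Cyp2j5, -1.90 to 1.82 for Cyp2f2 and -2.48 to 2.40 for Cyp3a44. Of these genes, Cyp3a11 and Cyp2j5 were above 0 in all livers. For Cyp2c40, the fold change ran from 1.10 to 1.44 and the adjusted p from 0.208 to 0.823 over 13 settings. The cause was not tested. The number of reads behind each value is unknown.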
